A study of Sus scrofa with 18 samples.

Results

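Genes of the endoplasmic reticulum (ER) stress response were examined in right ventricular free wall tissue of pigs. Their symbols were DDIT3, ATF4, HSPA5, HSP90B1, XBP1, HERPUD1, CALR, PDIA3, PDIA4 and PDIA6, and every probe set that the probe table assigns to exactly 1 of these symbols was taken. This gave 15 of 23935 tested probe sets, for 9 of the 10 genes. HERPUD1, which acts in the disposal of misfolded ER proteins, has no probe set under its symbol in that table and is not analysed here.

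The failure group held 9 arrays and the baseline group 9 arrays, 1 of each from the same 9 pigs of a mixed Hampshire, Yorkshire and Swedish Landrace breed. For pigs 5, 10 and 14 (label set 2, weight 30 to 40 kg) the labels state that failure was brought about by tying coronary arteries of the free right ventricular wall and was defined by a right atrial pressure above 20 mmHg, with no time given. For pigs 6, 8, 9, 11, 12 and 13 (label set 1) the failure sample is labelled with 120 min of ischemia, and their labels do not describe the procedure. The ages of the animals are not stated. None of the 18 arrays is a time-matched sample without ischemia, so ischemia and the time since baseline cannot be told apart. In a piece of whole tissue, a change in the number of cells of one type and a change in RNA per cell cannot be told apart either.

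Proteins that are secreted or placed in membranes are folded in the ER by chaperones that bind unfolded stretches and by disulfide isomerases that form and rearrange disulfide bonds. When unfolded protein builds up, 3 membrane sensors, encoded by ERN1, EIF2AK3 and ATF6, start the unfolded protein response. ERN1 splices the XBP1 messenger, EIF2AK3 slows translation while favouring that of ATF4, and the cleaved ATF6 enters the nucleus. These branches raise chaperone genes, and ATF4 can raise DDIT3, which encodes the death-linked factor CHOP. In heart muscle the ER is continuous with the sarcoplasmic reticulum that stores calcium, and ER stress is known from ischemic and failing hearts. A 3' array measures the amount of a transcript and not XBP1 splicing, translation of ATF4 or cleavage of ATF6.

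Across the series 16 of 23935 probe sets passed the threshold (an adjusted p under 0.05 in limma with pig as a block), 0.0668% of those tested, with 0.0209% higher and 0.046% lower in failure. Markers of cardiomyocytes were bright, with 11 of 12 measured at mean log2 intensities between 10.27 and 14.95, against array medians from 5.59 to 5.66. Red blood cell markers were lower in failure, with 3 of 5 past the threshold (ALAS2, AHSP and HBM). Their summed level ran from 8.64 to 9.86 in failure and from 9.49 to 11.08 at baseline (log2). For GAPDH the 3' probe set minus the 5' one (log2), a sign of RNA quality, ran from 0.31 to 2.17 in failure and from 0.61 to 1.49 at baseline in 8 pigs. Pig 5 stood apart with 3.55 in failure and 2.61 at baseline. The paired difference was 0.237 ± 0.556 (SD, n = 9), which was not distinguishable from 0 (two-sided exact permutation of signs, p = 0.246).

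None of the 15 probe sets of ER stress and chaperone genes differed between failure and baseline at the threshold. In limma their adjusted p-values ran from 0.571 to 0.997. At an unadjusted p under 0.05 there were 2 of 15 (ATF4 probe set 1 and PDIA3 probe set 2), both higher in failure, against 6.14% of all tested probe sets (3.31% higher and 2.83% lower). At the brightest probe set of each gene the 9 changes ran from -0.04 to 0.19 on the log2 scale, with a median of -0.0067. The median over all 6765 genes with a symbol was -0.0066. The 95% intervals at these brightest probe sets allowed a change of at most 1.246-fold in either direction. Other probe sets of the same genes allowed more. The widest bounds were 1.36-fold higher at PDIA3 probe set 2 and 1.31-fold lower at PDIA3 probe set 3. HSP90B1 probe set 2 allowed a level 1.28-fold lower. The levels of failure and baseline arrays overlapped at all 15 probe sets, as they did at every tested probe set (0% did not overlap).

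**Figure D1:**
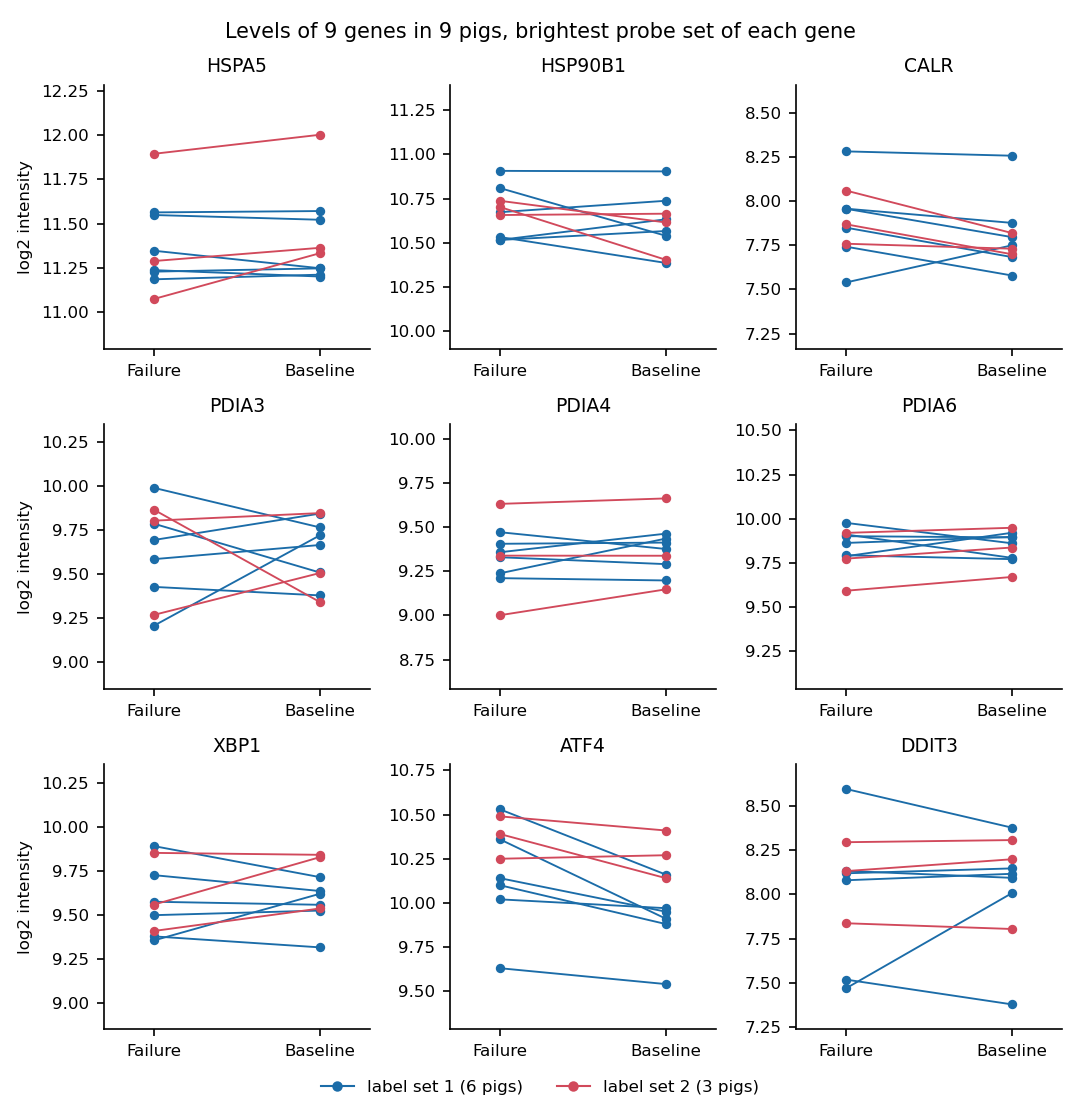
Log2 intensity (vertical axes, each spanning 1.5 log2 units) of 9 genes at the brightest probe set of each, in failure (left) and at baseline (right). Each line joins the 2 samples of 1 pig, coloured by label set. Most lines of HSPA5, PDIA4 and PDIA6 are close to level, those of ATF4 lie higher on the failure side in 8 of 9 pigs, and those of PDIA3 cross.

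HSPA5 encodes BiP, the HSP70 chaperone of the ER lumen, which also holds the stress sensors inactive. Its log2 intensity had a lowest value of 11.07, a median of 11.29 and a highest value of 11.89 in failure, and a lowest value of 11.20, a median of 11.33 and a highest value of 12.003 at baseline. The groups overlapped almost fully, and pig 10 was the highest on both occasions. The mean was 11.37 ± 0.25 in failure and 11.41 ± 0.26 at baseline (SD, n = 9 each), a change of -0.04 (SE 0.05, limma adjusted p = 0.952). The 95% interval of -0.15 to 0.08 allowed a level at most 1.11-fold lower or 1.06-fold higher in failure. HSPA5 was higher in 3 and lower in 6 pigs. All 3 pigs of label set 2 were lower, with a mean change of -0.15 ± 0.10 (SD, n = 3), against 0.02 ± 0.05 (SD, n = 6) in label set 1. Pig 5, whose GAPDH difference stood apart, had the lowest change of -0.26, and without it the mean over the other 8 pigs was -0.0091 (SE 0.05, adjusted p = 0.993). The contrast of the label sets was not past the threshold (limma interaction, adjusted p = 0.920).

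HSP90B1 encodes GRP94, the HSP90 chaperone of the ER, which folds integrins and Toll-like receptors. At probe set 1 its log2 intensity ran from 10.52 to 10.91 with a median of 10.67 in failure, and from 10.39 to 10.90 with a median of 10.61 at baseline. The change of 0.07 (SE 0.06, limma adjusted p = 0.921) was within the spread between pigs, 5 higher and 4 lower. Probe set 2, nearly as bright, ran from 9.13 to 10.82 in failure and from 9.60 to 10.98 at baseline. Its mean change was -0.06 (SE 0.14, adjusted p = 0.975), but single pigs lay between -0.82 and 0.64. The SD of the change was 0.53 at probe set 2 and 0.15 at probe set 1. The probe sets had the same sign in 5 of 9 pigs. At probe set 2, label set 2 averaged 0.30 ± 0.31 (SD, n = 3) and label set 1 averaged -0.24 ± 0.54 (SD, n = 6), which was not past the threshold for a difference in response (limma interaction, adjusted p = 0.882).

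CALR encodes calreticulin, a lectin chaperone of new glycoproteins and a calcium store of the ER lumen. Its log2 intensity had a lowest value of 7.54, a median of 7.87 and a highest value of 8.28 in failure, and a lowest value of 7.58, a median of 7.75 and a highest value of 8.26 at baseline. Failure was the higher of the 2 samples in 8 of 9 pigs. The exception was pig 8, with a change of -0.21, while the other 8 pigs lay between 0.02 and 0.24. The mean change was 0.09 (SE 0.06, 95% interval -0.03 to 0.22) and did not pass in limma (adjusted p = 0.878). Without pig 8 it was 0.13 (SE 0.06, adjusted p = 0.824). A direction of higher in at least 8 of 9 pigs held for 2 of 15 probe sets of the list, those of CALR and ATF4 probe set 1, and for 2.22% of all tested probe sets. None of the 15 was lower in at least 8 pigs, against 1.97% of all, and for either direction the share of all was 4.19%.

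The protein disulfide isomerases of the list are PDIA3, the partner of calreticulin on glycoproteins, PDIA4 and PDIA6. PDIA6 also acts on the luminal side of the stress sensor ERN1. PDIA6 ran from 9.59 to 9.98 with a median of 9.86 in failure, and from 9.67 to 9.95 with a median of 9.86 at baseline. Its change was -0.0067 (SE 0.05, limma adjusted p = 0.996), and the 95% interval allowed at most a 1.08-fold lower or a 1.07-fold higher level. PDIA4 at its bright probe set 1 ran from 9.002 to 9.63 with a median of 9.34 in failure, and from 9.15 to 9.66 with a median of 9.38 at baseline. Its change was -0.04 (SE 0.05, adjusted p = 0.951).

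PDIA6, PDIA4 probe set 1 and HSPA5 were among the steadiest probe sets on the array, and they are named here for having the smallest spread of the 15. The SD of the change over pigs was 0.09 for PDIA6, 0.09 for PDIA4 probe set 1 and 0.10 for HSPA5. Of all tested probe sets, 1.245%, 1.91% and 3.18% had an SD as small as these in the same order, and the median SD over all was 0.216. Spread depends on level, and genes above the median level had a median SD of 0.197. No share among probe sets of a like level was computed. HSP90B1 probe set 2, also bright, had an SD of 0.53, and 97.7% of all tested probe sets had one as small. The other PDIA4 probe sets were dim (mean levels 4.24 and 3.47, against a median of 5.63 over all values) and had SDs of 0.41 and 0.26 with changes of 0.02 and 0.04.

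PDIA3 varied more. Its probe set 1 ran from 9.21 to 9.99 with a median of 9.69 in failure, and from 9.34 to 9.85 with a median of 9.67 at baseline. Single pigs lay on both sides of 0, from -0.51 in pig 8 to 0.52 in pig 10, and the mean change was 0.0056 (SE 0.09, limma adjusted p = 0.997). Probe set 2, at a mean level of 6.59, ran from 6.28 to 7.16 with a median of 6.85 in failure, and from 5.92 to 6.93 with a median of 6.52 at baseline. Its change of 0.24 (SE 0.09, 95% interval 0.04 to 0.44) was the highest of the 15 probe sets and did not pass (adjusted p = 0.699, higher in 6 of 9 pigs). Probe set 3, at a mean level of 5.18, had a log2 change of -0.05 (SE 0.16, adjusted p = 0.980) with single pigs between -0.93 and 0.91. Any 2 of the 3 probe sets had the same sign in 5 of 9 pigs, so the value at probe set 2 is not given as a change of the PDIA3 gene. The mean of all probe sets of a gene, used as an alternative, gave no adjusted p under 0.05 for any of the 9 genes.

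**Figure D2:**
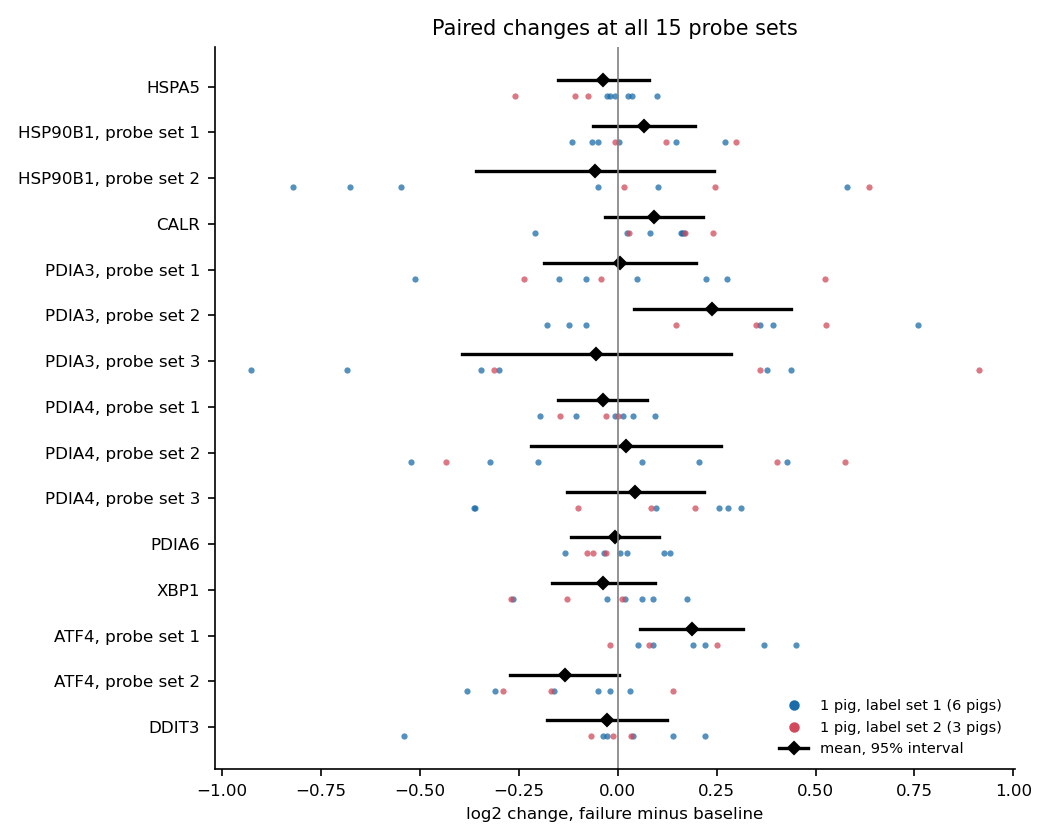
Log2 change, failure minus baseline (horizontal axis), at all 15 probe sets. Dots are single pigs coloured by label set, and diamonds with lines are limma means with 95% intervals. Intervals of 13 probe sets include 0, and those of PDIA3 probe set 2 and ATF4 probe set 1 do not, although neither passed after adjustment.

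XBP1 encodes the transcription factor of the ERN1 branch, which drives genes of folding, translocation and degradation. Its log2 intensity ran from 9.36 to 9.89 with a median of 9.56 in failure, and from 9.32 to 9.84 with a median of 9.62 at baseline. The groups overlapped, with 5 pigs higher and 4 lower. The change was -0.04 (SE 0.06, 95% interval -0.17 to 0.09, limma adjusted p = 0.959). The lowest changes were -0.27 in pig 10 and -0.26 in pig 9, and the highest was 0.18 in pig 13.

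ATF4 encodes the factor of the EIF2AK3 branch, which drives genes of amino acid supply and of the stress response itself. At probe set 1 its log2 intensity had a lowest value of 9.63, a median of 10.25 and a highest value of 10.53 in failure, and a lowest value of 9.54, a median of 9.97 and a highest value of 10.41 at baseline. Failure was higher in 8 of 9 pigs, from 0.05 in pig 13 to 0.45 in pig 6, and pig 10 had a log2 change of -0.02. The mean change was 0.19 (SE 0.06, 95% interval 0.06 to 0.32), and its unadjusted p of 0.00817 became an adjusted p of 0.571 in limma. It was 0.10 ± 0.14 (SD, n = 3) in label set 2 and 0.23 ± 0.16 (SD, n = 6) in label set 1. Without pig 5, whose GAPDH difference stood apart, it was 0.18 (SE 0.06, adjusted p = 0.718).

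ATF4 probe set 2 was dim, with a mean level of 3.75, below the 25th percentile of all values (3.97). It ran from 3.39 to 4.13 in failure and from 3.27 to 4.42 at baseline, with a change of -0.13 (SE 0.06, limma adjusted p = 0.822). It was lower in 7 of 9 pigs, and the sign matched that of probe set 1 in 3 of 9. The mean of both ATF4 probe sets had a log2 change of 0.03 (SE 0.05, adjusted p = 0.966).

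DDIT3 encodes CHOP, a factor downstream of ATF4 that is linked to cell death under lasting ER stress. Its log2 intensity had a lowest value of 7.47, a median of 8.12 and a highest value of 8.597 in failure, and a lowest value of 7.38, a median of 8.12 and a highest value of 8.38 at baseline. The groups overlapped, with 4 pigs higher and 5 lower. The change was -0.03 (SE 0.07, 95% interval -0.18 to 0.12, limma adjusted p = 0.977). Pig 8 had a log2 change of -0.54, and without it the change was 0.04 (SE 0.06, adjusted p = 0.969). Pig 8 was also the lowest of the 9 pigs for CALR and for PDIA3 probe set 1, but it was the highest for PDIA6 (0.13). At the brightest probe sets pig 8 had 5 genes higher and 4 lower in failure. Its GAPDH difference was 1.05 in failure and 0.80 at baseline, within the range of the others.

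**Figure D3:**
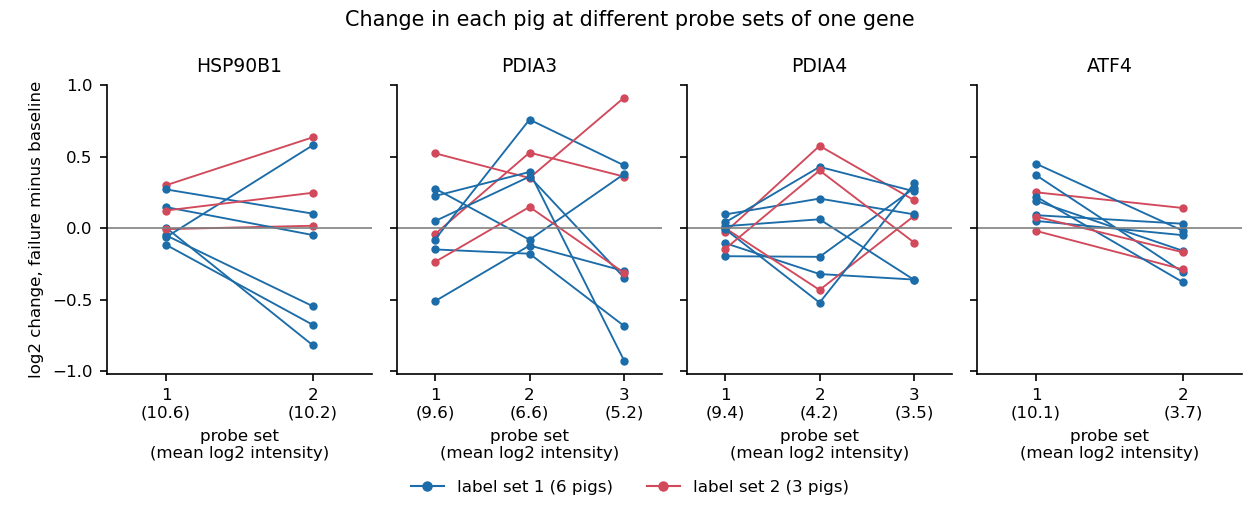
Log2 change in each pig, failure minus baseline (vertical axis), at the probe sets of the 4 genes that had more than 1, with the mean log2 intensity of each probe set below its number. Each line is 1 pig, coloured by label set. The lines spread widely at HSP90B1 probe set 2, PDIA3 probe set 3 and PDIA4 probe set 2, and tightly at PDIA4 probe set 1.

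The level in failure was set against the level at baseline over the 9 pigs at all 15 probe sets, a comparison added with the data in view. The median r was 0.66 for the 15 probe sets, 0.51 over all tested probe sets and 0.66 over the 11968 at or above the median level, so the ER genes were not set apart by this measure. An r above 0 was found for 14 of 15, against 86.7% of all. At 9 of 15 the SD between pigs at baseline was above the SD of the paired change, against 42.7% of all tested probe sets and 57% of those at or above the median level. For 6 of 15 the Pearson correlation passed after adjustment over the 15. This tests r against 0, while 86.7% of all tested probe sets had an r above 0. No share passing was computed over all probe sets, so the 6 are not given as a result particular to the ER genes. An r as high as that of DDIT3 was reached by 14.7% of all tested probe sets and by 24% of those at or above the median level. DDIT3 had r = 0.808 (exact permutation p = 0.00687, adjusted 0.0214) and rho = 0.850 (exact permutation p = 0.00607, adjusted 0.0456). Without pigs 11 and 14, the farthest from the median, r was 0.890 (exact permutation p = 0.00317, n = 7), and within label set 1 it was 0.780 (n = 6). DDIT3 was lowest in pig 11 at baseline and second lowest there in failure, and it was highest in pig 9 both times.

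An r as high as that of HSPA5 was reached by 2.69% of all tested probe sets and by 4.51% of those at or above the median level. For HSPA5 r was 0.919 (exact permutation p = 0.00247, adjusted 0.0185) and rho was 0.750 (exact permutation p = 0.0255, adjusted 0.0922). Without pigs 10 and 6, the farthest from the median at baseline, r was 0.647 (exact permutation p = 0.130, n = 7). That p cannot separate reliance on those pigs from the smaller number and the narrower range of levels. Within label set 1 r was 0.961 (n = 6). CALR (r = 0.782), PDIA4 probe set 1 (r = 0.847), ATF4 probe set 1 (r = 0.838) and ATF4 probe set 2 (r = 0.892) had adjusted p-values from 0.0185 to 0.0440 by exact permutation. An r as high was reached by 17.8%, 9.86%, 11% and 4.9% of all tested probe sets in that order. Without the 2 pigs farthest from the median, r was 0.472 for CALR, 0.429 for PDIA4 probe set 1 and 0.515 for ATF4 probe set 1 (exact permutation p = 0.293, 0.334 and 0.229 in that order, n = 7). For ATF4 probe set 2 it was 0.725 (exact permutation p = 0.0653, n = 7). None of these 4 had a p under 0.05 without its 2 pigs. With 7 pigs over a narrower range of levels, reliance on those pigs cannot be told apart from the smaller number of animals. Within label set 1 their r was 0.819, 0.433, 0.895 and 0.710 (n = 6). In rank correlation DDIT3 and ATF4 probe set 2 had an adjusted p of 0.0456 each by exact permutation, and no share over all probe sets was computed for it. PDIA3 probe set 1 had r = 0.163 (exact permutation p = 0.665, adjusted 0.767) and rho = 0.183 (exact permutation p = 0.644, adjusted 0.690).

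**Figure D4:**
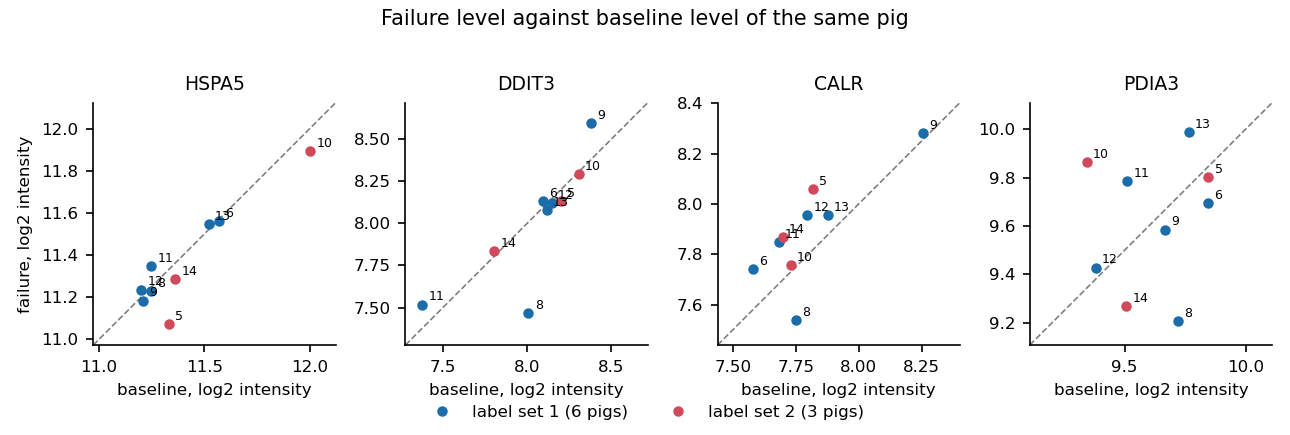
Level in failure (vertical axes) against level at baseline (horizontal axes) for HSPA5, DDIT3, CALR and PDIA3 at the brightest probe set, both as log2 intensity. Points are pigs labelled by number and coloured by label set, and the dashed line marks equal levels. HSPA5 of pig 10 lies apart at 11.89 in failure and 12.003 at baseline, DDIT3 of pig 8 lies 0.54 below the line, and PDIA3 shows no alignment.

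Within pigs the 9 genes mostly lay on both sides of 0. At the brightest probe sets all 9 genes were higher in failure in pig 11, while in the other pigs between 3 and 6 of the 9 were higher. The other probe sets of these genes lay on both sides of 0 in pig 11, from -0.08 (PDIA3 probe set 2) to 0.38 (PDIA3 probe set 3). No share over all genes was computed for single pigs, so a shift of the whole array pair cannot be told apart. The changes of the 8 other genes were each set against the change of HSPA5 over the 9 pigs. Pearson's r ran from -0.472 for HSP90B1 to 0.406 for PDIA6, and none passed (exact permutation, adjusted p from 0.903 to 0.922 over 8 relations). Rank correlations ran from -0.367 for HSP90B1 to 0.517 for XBP1 and PDIA4 (exact permutation, adjusted p from 0.517 to 0.948). Without pigs 5 and 11, the farthest from the median of the HSPA5 change, the 8 r ran from -0.332 for HSP90B1 to 0.710 for XBP1 (exact permutation p = 0.0742 for XBP1, n = 7). Within label set 1 they ran from -0.645 for ATF4 to 0.765 for PDIA3, with 0.723 for PDIA4 and 0.568 for CALR (n = 6), so these r depended on which pigs were used.

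Over all 36 pairs of the 9 genes, a family chosen with the data in view, the median r was 0.08. The highest was 0.758 between PDIA4 and PDIA6 (exact permutation p = 0.0195, adjusted 0.700) with rho = 0.683 (exact permutation p = 0.0503, adjusted 0.865). Without the 2 pigs farthest from the median of the PDIA4 change, pigs 9 and 14, this r was 0.505 (n = 7, exact permutation p = 0.261), and within label set 1 it was 0.815 (n = 6). The lowest was -0.569 between DDIT3 and PDIA6 (exact permutation p = 0.118, adjusted 0.712; rho = -0.383, exact permutation p = 0.3125, adjusted 0.865). Without pigs 8 and 9 this r was 0.690 (n = 7, exact permutation p = 0.0948), and within label set 1 it was -0.603 (n = 6). The sign differed with the pigs used, and r was not distinguishable from 0 either over all 9 pigs or over the 7. None of the 36 passed. The 2 changes in a pair come from the same arrays.

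The change of each gene was also set against the change of the GAPDH 3'/5' difference, and none of 9 relations passed. XBP1 had the highest r of 0.673 (exact permutation p = 0.0473, adjusted 0.425) with rho = 0.600 (exact permutation p = 0.0968, adjusted 0.436). DDIT3 had the lowest rho of -0.800 (exact permutation p = 0.0138, adjusted 0.124) with r = -0.334 (exact permutation p = 0.398, adjusted 0.803). Without pigs 13 and 5 r was 0.545 for XBP1 and -0.538 for DDIT3, and within label set 1 it was 0.746 and -0.331. With the GAPDH difference as a covariate in the fit, the XBP1 change was -0.08 (SE 0.06, limma adjusted p = 0.891), against -0.04 without it. The DDIT3 change was 0.0023 (SE 0.08, adjusted p = 0.999) with the covariate and -0.03 without it, and none of the 15 probe sets passed.

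The genes whose paired changes were most like the mean change of the 9 genes, each first divided by its SD, were TRIP13, KNOP1, TBC1D10B, BRPF1 and PTOV1. Their r over 9 pigs lay between 0.847 and 0.894, the highest among 4919 genes above the median level, and it is given as a description. With single genes of the list their r lay between -0.20 and 0.80.

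Lists of related genes were described at 1 probe set per gene. Of 104 measured genes in 7 lists of the ER stress response and ER protein handling, none passed the threshold in limma. At an unadjusted p under 0.05 there were 5, or 4.81%, against 5.54% of all 6765 genes. Of these 5, 4 were in the branch of EIF2AK3, ATF4 and CHOP and 1 in translocation and glycosylation. They had a median change of -0.02, with 40 above and 64 below 0, and 38.5% above 0 compared with 46.4% of all genes. The lists were chosen with earlier results of these data known.

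The stress sensors were represented by 2 of 10 symbols. ATF6B, a relative of ATF6, had a log2 change of 0.12 (SE 0.07, limma adjusted p = 0.868) and CREB3L2, an ER-bound factor cleaved like ATF6, had one of -0.11 (SE 0.11, adjusted p = 0.927). The probe table names none of ERN1, EIF2AK3 and ATF6, which are not analysed here.

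In the branch of EIF2AK3, ATF4 and CHOP, 9 of 18 measured genes were above and 9 below 0, with a median of -0.0046. At an unadjusted p under 0.05 there were 4 of 18 (22.2%), 3 higher and 1 lower, against 5.54% of all genes, and none passed after adjustment. PSAT1, an enzyme of serine synthesis and a target of ATF4, had log2 intensities of 7.88 ± 0.63 in failure and 7.64 ± 0.57 at baseline (SD, n = 9 each). Its change of 0.24 (SE 0.08, limma adjusted p = 0.565) was higher in 7 of 9 pigs. CEBPB, a partner of ATF4 and CHOP, had a log2 change of 0.19 (SE 0.08, adjusted p = 0.753, higher in 6 of 9). PPP1R15A encodes GADD34, which brings translation back after stress, and it had a log2 change of 0.15 (SE 0.07, adjusted p = 0.812, higher in 8 of 9). These values did not pass the threshold.

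The other ER chaperones and folding enzymes had 6 genes above and 20 below 0 of 26 measured, with a median of -0.02 and changes between -0.14 and 0.04. The smallest p-values belonged to TXNDC15, a thioredoxin-domain protein (-0.13, SE 0.06, limma adjusted p = 0.824), ERP29, a luminal escort protein (-0.08, SE 0.06, adjusted p = 0.897), and CRELD2, a gene induced by ER stress (-0.12, SE 0.09, adjusted p = 0.905). ERP29 was lower in 7 of 9 pigs, TXNDC15 in 6 and CRELD2 in 5. The other TXNDC15 probe sets, at levels of 6.36 and 3.12, had changes of -0.03 and -0.02 (SE 0.07 each).

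ER-associated degradation had 9 genes above and 6 below 0 of 15 measured, with a median of 0.02. ERLEC1, a lectin that hands glycoproteins to degradation, had a log2 change of 0.10 (SE 0.06, limma adjusted p = 0.872). UFD1, a cofactor of the extracting ATPase VCP, had a log2 change of -0.11 (SE 0.08, adjusted p = 0.890), and the ubiquitin ligase gene RNF5 had one of 0.07 (SE 0.06, adjusted p = 0.916). The other UFD1 probe set, at a level of 5.99, had a change of -0.0065 (SE 0.12). The change of HERPUD2, a relative of HERPUD1 named after its value had been seen, was 0.02 (SE 0.06, adjusted p = 0.977).

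Translocation and glycosylation genes had 10 above and 18 below 0 of 28, with a median of -0.03. OSTC, a subunit of the oligosaccharyltransferase, had a log2 change of -0.16 (SE 0.08, limma adjusted p = 0.812), SRPRB, of the receptor of the signal recognition particle, had one of -0.11 (SE 0.05, adjusted p = 0.824, lower in 8 of 9 pigs), and SRP9, of the particle itself, had one of -0.08 (SE 0.06, adjusted p = 0.890). The list of calcium-binding proteins of the ER and related compartments had 1 above and 5 below 0 of 6 (median -0.03). SDF4 was at -0.06, RCN2 at -0.04 and RCN1 at 0.04 (adjusted p from 0.947 to 0.963). The other RCN1 probe set, at a level of 3.98, had a change of 0.02 (SE 0.07).

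Death genes linked to stress had 4 above and 5 below 0 of 9 (median -0.0040). BCL2L11, which encodes the death factor BIM that CHOP can induce, had a log2 change of 0.16 (SE 0.10, limma adjusted p = 0.884) with single pigs from -0.19 to 0.75. It was higher in 4 and lower in 5 pigs. The other BCL2L11 probe set, at a level of 5.21 against 5.45, had a change of 0.02 (SE 0.06). CASP8 had a log2 change of -0.14 (SE 0.10, adjusted p = 0.899) and BAK1 had one of 0.06 (SE 0.08, adjusted p = 0.947), both at dim levels (4.04 and 4.41). The other BAK1 probe set, dim at 3.63, had a change of 0.07 (SE 0.07).

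For comparison, the heat shock proteins of the cytosol and mitochondria had 13 above and 18 below 0 of 31, with a median of -0.01 and none past the threshold. HSPH1, a nucleotide exchange factor of cytosolic HSP70, was the lowest of them at -0.26 (SE 0.06, limma adjusted p = 0.335), lower in 9 of 9 pigs. DNAJA1 had a log2 change of -0.11 (SE 0.07, adjusted p = 0.875) and HSPA13 had one of 0.11 (SE 0.07, adjusted p = 0.875). The other DNAJA1 probe set had a change of -0.09 (SE 0.09), and the other HSPA13 probe set, dim at 3.25, had one of -0.05 (SE 0.06). HSPA13 is an HSP70 relative found with microsomes, so this list also holds a protein outside the cytosol and mitochondria.

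**Figure D5:**
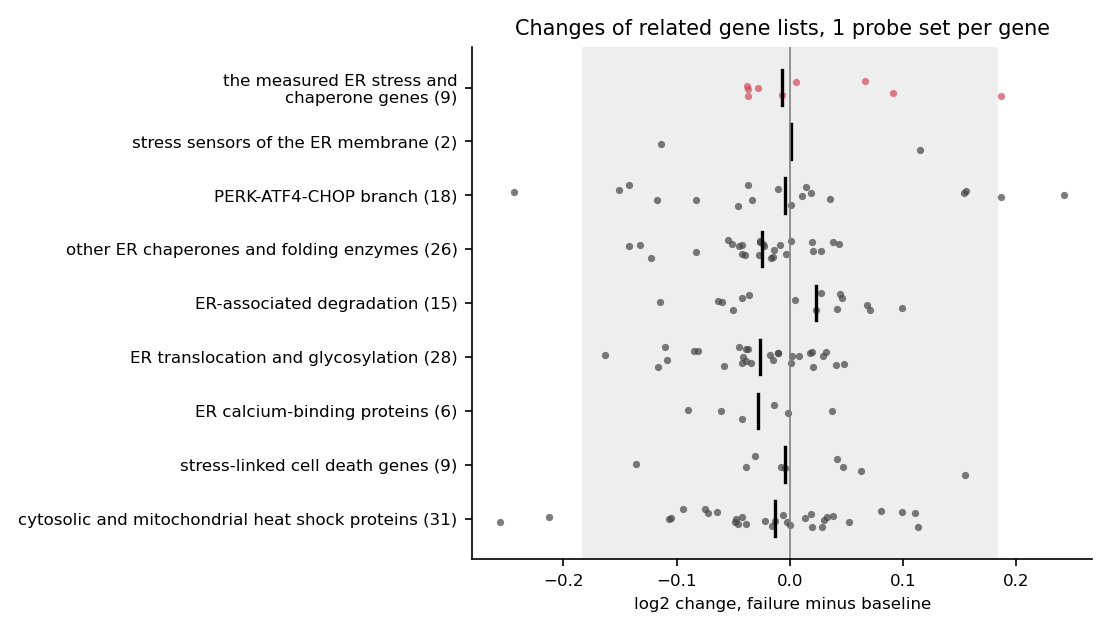
Log2 change, failure minus baseline (horizontal axis), of the genes of 9 lists (vertical axis, number of measured genes in brackets), 1 probe set per gene. Dots are genes (red for the 9 ER stress and chaperone genes) with random vertical offset, bars are list medians, and the grey band holds 95% of all tested probe sets (-0.18 to 0.18). Medians of all 9 lists lie between -0.03 and 0.02.

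Markers of other cells with a busy ER were checked beside these values. The plasma cell marker JCHAIN, at a level of 5.63 close to the median of all values, had a log2 change of -0.22 (SE 0.09, limma adjusted p = 0.737). TNFRSF17, at a dim level of 4.32, had one of 0.12 (SE 0.07, adjusted p = 0.877). These 2 of 5 plasma cell markers had a summed log2 level of 5.55 to 6.39 in failure and of 5.86 to 6.56 at baseline. Fibroblast markers had 5 of 6 genes above 0 (median 0.07) and a summed level of 12.60 to 14.16 in failure and of 12.76 to 14.02 at baseline, with none past the threshold. The part of these cells in the values of the ER genes was not tested.

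The difference in response between the label sets was not past the threshold at any of the 15 probe sets (limma interaction, adjusted p from 0.882 to 0.998), as at none of the 23935 tested (0%). At an unadjusted p under 0.05 there were 0 of the 15 and 5.67% of all. The largest differences, label set 2 minus label set 1, were 0.56 (SE 0.31) at PDIA3 probe set 3 and 0.54 (SE 0.27) at HSP90B1 probe set 2. With 3 pigs in label set 2, the interval at HSP90B1 probe set 2 was wide (-0.04 to 1.11).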

How the data were processed

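Right ventricular RNA was measured in 18 samples on Affymetrix porcine arrays. Per the labels' protocols, 250 ng of total RNA entered a 3' in vitro transcription kit. The authors deposited log2 intensities, 1 per probe set, and the submitters' processing notes name Partek. How background was corrected and how arrays were normalized and summarized is not given in the sources used here. Array medians were nearly equal, so a shift of most transcripts one way would not be visible. No detection calls were used.

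The 188 control probe sets were dropped, which left 23935. Genes were named from the platform's probe table (10069 tested probe sets with 1 symbol, 198 with several, 13668 unnamed here). Of these 10069, 9961 had a gene ID in the RefSeq table of Sscrofa11.1, which changed 0 symbols. Probe sets of a gene were numbered by falling mean. Failure was compared with baseline in limma 3.58.1 (R 4.3.3), with lmFit and eBayes, a term for each pig, two-sided tests and p-values adjusted over all of them by Benjamini-Hochberg. SEs and intervals are moderated, and their precision is limited by the number of animals. The labels pair samples by pig. Once group means were removed, same-pig arrays had correlations between 0.449 and 0.750, and 9 of 9 baseline arrays matched their own failure array best.

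Members and lists were chosen with earlier results of these data known. Named genes are all probe sets of the listed genes, the 3 genes with the smallest p of each related list and any in those lists past the threshold, and the 5 genes most like the mean change. HERPUD2, ASNS, MTHFD2, ATF3 and the plasma cell markers JCHAIN and TNFRSF17 are named outside this rule, after their values were seen. Marker lists of 10 cell types were used for levels. Those not given in the text had medians of 0.31 (atrial cardiomyocytes), 0.01 (endothelium), 0.14 (smooth muscle), 0.05 (macrophages), -0.02 (neutrophils) and -0.08 (lymphocytes), none with a gene past the threshold. At an unadjusted limma p under 0.05, 3 of 8 lymphocyte markers were lower, 37.5% against 5.54% of all genes. For smooth muscle and for atrial cardiomyocytes 1 of 3 was higher, and all 3 of each were above 0. Endothelium, macrophages and neutrophils had 0. The part of these cells in the ER values was not tested. The cardiomyocyte list had a median of -0.04 and the red blood cell list of -0.83. The alternatives dropped the pig term or made it random, rescaled the arrays, removed dim probe sets, took 1 probe set or a mean per gene, used other variance models or an unmoderated paired test, rounded to 2 decimals, added a GAPDH 3'/5' covariate, left out each pig, or kept 1 label set.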

Additional observations from a re-analysis of the deposited data

Results flagged for a closer look

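In 4 of the 45 sets of 9 values, 1 pig lay well away from the remaining 8 (Dixon's ratio above 0.493). The sets were levels in failure, levels at baseline and paired changes at 15 probe sets. For independent sets chance would give about 1 in 20 (2.25). These sets share arrays, and each change is computed from the levels, so the 2 counts cannot be compared strictly. The DDIT3 change was -0.54 in pig 8, against -0.07 to 0.22 in the others. The CALR change was -0.21 in pig 8, against 0.02 to 0.24 in the others. HSPA5 at baseline was 12.003 in pig 10, against 11.20 to 11.57 in the others. CALR at baseline was 8.26 in pig 9, against 7.58 to 7.88 in the others.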

How the results depend on the processing

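None of the ER stress and chaperone probe sets passed under any of 24 alternatives, with 1 to 3 at an unadjusted p under 0.05 when single pigs were left out. Of 342 values for single probe sets under alternatives, 314 kept their sign and 28 did not, all of them far from the threshold and most near 0. The sign changed with quantile normalization for PDIA6 (0.00088) and with the mean of probe sets for PDIA4 (0.0094). Label set 1 alone changed it for HSPA5 (0.018), XBP1 (0.0091), PDIA3 probe set 1 (-0.032), PDIA4 probe set 2 (-0.058) and PDIA6 (0.0183), and label set 2 alone for HSP90B1 probe set 2 (0.30) and PDIA3 probe set 3 (0.32). The GAPDH covariate changed it for DDIT3 (0.0023), PDIA3 probe set 1 (-0.0128) and PDIA3 probe set 3 (0.0492). Leaving out single pigs changed it for DDIT3 (-0.0589 to 0.0360, positive without pig 8), HSP90B1 probe set 2 (-0.144 to 0.0381), PDIA3 probe set 1 (-0.0591 to 0.0703), PDIA3 probe set 3 (-0.175 to 0.0553), PDIA4 probe set 2 (-0.0475 to 0.0896) and PDIA6 (-0.0241 to 0.0091). ATF4 probe set 1 kept its sign in all alternatives, with 0.15 to 0.21 over pigs left out and 0.03 as the mean of both probe sets. The limma count of all 23935 probe sets past the threshold was 16. It was 0 without the replicate block (440 at an unadjusted p under 0.05), 0 in the unmoderated paired test (1431 unadjusted) and 0 in label set 2 alone (1211 unadjusted). It was 3 in label set 1 alone, 9 with the GAPDH covariate (with the replicate block), 9 with probe sets at or above the median only, 7 with 1 probe set per gene (6765 tested) and 5 with the mean per gene. Pigs left out gave 2 (without pig 10) to 26 (without pig 8). The cause of these differences in count was not tested. In limma the count for the difference between label sets was 0 in all 15 alternatives, with 1045 to 1782 at an unadjusted p under 0.05 when single pigs were left out. Dim probe sets of ATF4, PDIA3 and PDIA4 limit what they can show.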

Other observations

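Genes that ATF4 is known to drive lay on both sides of 0, as seen when the whole list was read after the tests. PSAT1 of serine synthesis had a change of 0.24 (SE 0.08), whereas ASNS, which makes asparagine, had a change of -0.15 (SE 0.07) and MTHFD2, a mitochondrial folate enzyme, a change of -0.14 (SE 0.07). Their adjusted p-values in limma were 0.565, 0.812 and 0.819, so none passed. ATF3, another target of the branch, had a change of -0.24 (SE 0.17, adjusted p = 0.895), with log2 intensities of 9.81 ± 2.09 in failure and 10.05 ± 1.71 at baseline (SD, n = 9 each).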
